A study of Mus musculus with 2 samples.

Results

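The clustered histone genes are the genes that carry a cluster name of the form Hist1h, Hist2h, Hist3h or Hist4h in the deposited tables. Membership was set by that name alone, while the set itself was chosen with earlier results of these data known. They number 66 of the 35129 genes listed: 6 for the linker histone H1, 19 for H2A, 17 for H2B, 12 for H3 and 12 for H4. By cluster, 52 belong to Hist1, 10 to Hist2, 3 to Hist3 and 1 to Hist4. The cells were hepatocytes taken from C57BL/6 mice into primary culture, and their RNA was sequenced. One group, labelled Ad-KLF14, received an adenovirus with an expression vector for KLF14, a transcription factor with zinc fingers, and the other, labelled Ad-GFP, a control adenovirus that the series' design text calls an empty vector. Each group is 1 library, so there is no replicate and no test between the conditions, and every difference below describes these 2 libraries. Virus dose, time after infection, age of the mice and pooling of animals are not given in the sources used here.

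Histones H2A, H2B, H3 and H4 form the spool around which DNA is wound in a nucleosome, and H1 binds the DNA where it enters and leaves the spool. Most clustered histone genes have no intron and are transcribed mainly while DNA is replicated. Their usual mRNA has no poly(A) tail. It ends in a short stem-loop that is bound by the protein SLBP, and some members also make a polyadenylated mRNA in cells that do not divide. Hepatocytes in primary culture divide little, and the library kit named in the labels selects poly(A) RNA in its standard protocol, although the labels do not say whether that step was used. The values below may therefore reflect polyadenylated forms more than the tailless ones, and how much of the tailless mRNA was captured was not tested.

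The stem-loop was searched by a set pattern of 16 bases in the GENCODE M21 transcripts (build GRCm38). Its left arm of 6 bases reads GG, then C or T, again C or T, then CT. The right arm pairs with it in full, and the loop of 4 bases starts with T and holds no G. For single members, only matches after the stop codon are given below. A match anywhere in a protein-coding transcript was found in 43 of the 62 members that have one there (69.4%). The same search gave 53 of all 21877 protein-coding genes (0.242%), the members included. Of the 13 members that averaged 1 FPKM or more, the stem-loops of 5 are shown. FPKM stands for fragments per kilobase of gene model, per 1000000 fragments of the library, and a counted fragment is called a read here. These matches had to look alike in the letters that the pattern fixes. The stem-loop is in capitals, with up to 5 bases on each side in lower case, 5′ to 3′ on the strand of the gene.
Hist1h1c, chr13:23739512-23739527, plus strand: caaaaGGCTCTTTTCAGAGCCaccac
Hist3h2a, chr11:58955172-58955187, plus strand: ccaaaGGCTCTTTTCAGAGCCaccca
Hist1h4d, chr13:23581950-23581965, plus strand: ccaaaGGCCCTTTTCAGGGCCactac
Hist1h4i, chr13:22040966-22040981, minus strand: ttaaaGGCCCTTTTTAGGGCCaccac
Hist2h4, chr3:96262939-96262954, minus strand: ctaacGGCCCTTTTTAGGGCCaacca
The arms of the H1 and H2A genes shown are identical, and the H4 genes shown share another arm. The pattern left little room for other arms. The transcripts of Hist1h2bc and Hist2h2be, described next, hold no match after the stop codon. Only spliced transcripts were searched, so a stem-loop outside them or of other letters would be missed.

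**Figure D1:**
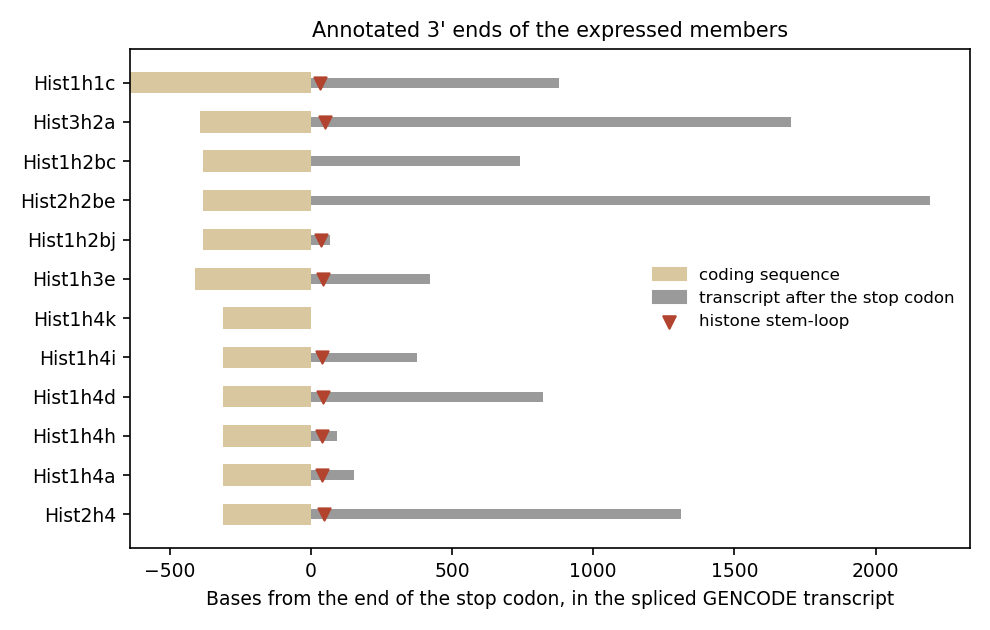
Annotated 3′ ends of the 12 members that averaged at least 1 FPKM and have a coding transcript (GENCODE M21), with bases from the end of the stop codon on the horizontal axis, the coding sequence to the left of 0, the rest of the spliced transcript to the right, and a triangle at the stem-loop. Hist1h2bc and Hist2h2be reach 742 and 2192 bases past the stop codon with no match to the stem-loop pattern. Hist1h4k ends at the stop codon, and in the other 9 the stem-loop begins 24 to 41 bases past it.

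The H2B gene Hist1h2bc stood far above all other members in both libraries. It reached 71.6 FPKM with Ad-KLF14 and 37.6 FPKM with Ad-GFP, from 581 and 310 reads. It lies at chr13:23684199-23692908 on the plus strand, and GENCODE gives it a transcript of 1156 bases in 2 exons, of which the first holds the whole coding sequence. The ratio of Ad-KLF14 over Ad-GFP was 1.9, with a 95% interval from 1.65 to 2.19. Intervals are exact Clopper-Pearson intervals on the reads and cover counting error only, not the spread between cultures. Hist1h2bc held 53.7% of the summed FPKM of all 66 members with Ad-KLF14 and 47.3% with Ad-GFP. Of its 332 windows of 50 bases in the coding sequence, 324 (97.6%) also occur in a transcript of another gene, most often Hist1h2bg. Reads from the coding part of this gene and of its copies can therefore not be told apart by sequence in most places.

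The other H2B gene with a clear level, Hist2h2be, was at 4.32 FPKM with Ad-KLF14 and at 1.08 FPKM with Ad-GFP. The ratio of 3.99 had an interval from 2.28 to 7.41, from 63 and 16 reads as the smallest numbers that fit. A gene model of 2618 bases, close to the GENCODE transcript of 2620 bases, would give 126 and 32 reads and an interval from 2.69 to 6.09. Hist2h2be lies at chr3:96221119-96223738 on the plus strand in 1 exon. None of its windows of 50 bases in the coding sequence occurs in another gene's transcript, while 10.7% of those of 36 bases do. Of the 13 members kept (those averaging 1 FPKM or more) it had the largest log2 ratio, 1.35 on log2(FPKM + 1), and 97.3% of all genes kept by the same filter had a lower one. This order depends on the scale: Hist2h4 was above it with a pseudocount of 0.1 (2.61 against 1.90) and with each library scaled to a sum of 1000000 (1.81 against 1.66), and Hist1h2bc with a pseudocount of 5 (0.84 against 0.62).

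The other H2B genes were near the limit of detection. Hist1h2bj was at 0.706 FPKM with Ad-KLF14 and 1.39 FPKM with Ad-GFP, from 3 and 6 reads, and its interval from 0.0821 to 2.37 holds 1. The 14 H2B genes below a mean of 1 FPKM had at most 10 reads over both libraries, and 2 of them had none. Hist1h2bg, the closest copy of Hist1h2bc, had 3 reads with Ad-KLF14 and 7 with Ad-GFP (0.437 and 1.01 FPKM), and its interval from 0.0725 to 1.9 holds 1. Hist1h2bn, Hist1h2bp, Hist3h2ba, Hist1h2bf and Hist1h2bl had reads in the Ad-KLF14 library only, with 4, 4, 2, 1 and 1. Hist1h2bh and Hist1h2bm had 1 read each, in the Ad-GFP library only. Of all 19667 genes above 0 in either library, 7.14% were above 0 with Ad-KLF14 only and 6.71% with Ad-GFP only, and of those averaging under 1 FPKM 19.2% and 18.1%.

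**Figure D2:**
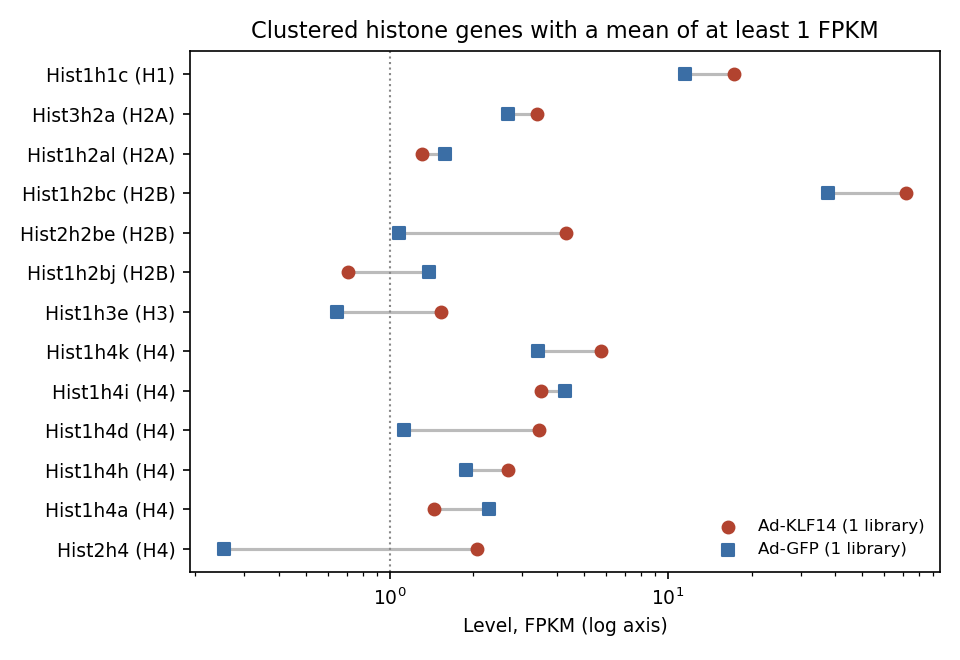
Levels of the 13 clustered histone genes that averaged at least 1 FPKM, on a log axis in FPKM, with 1 circle for the Ad-KLF14 library, 1 square for the Ad-GFP library and a dotted line at 1 FPKM. Hist1h2bc (71.6 and 37.6 FPKM) and Hist1h1c (17.3 and 11.5 FPKM) stand apart from the others, all of which are below 6 FPKM.

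Hist1h2bc and Hist2h2be each share their start region with an H2A gene that is read in the opposite direction, Hist1h2ac and Hist2h2ac. The GENCODE starts of Hist1h2ac and Hist1h2bc lie 251 bases apart, and those of Hist2h2ac and Hist2h2be 239 bases apart. RefSeq promoters (GRCm38.p6, from 250 bases before to 50 bases after the start of the H2A gene) span the whole region between both starts, and are shown because both H2B genes of these pairs were higher with Ad-KLF14. They are written on the minus strand, in the direction of the H2A gene. The H2B gene starts near the left end, at position 11 in the first window and position 12 in the second, and is read leftward from there. Capitals mark matches on either strand of the box CCAAT, of a TATA box spelled TATAAA, of the GC box GGGCGG, of the element CACCC, and of the octamer ATTTGCAT, which the H2B promoters are known for.
Hist1h2ac, chr13:23683910-23684209: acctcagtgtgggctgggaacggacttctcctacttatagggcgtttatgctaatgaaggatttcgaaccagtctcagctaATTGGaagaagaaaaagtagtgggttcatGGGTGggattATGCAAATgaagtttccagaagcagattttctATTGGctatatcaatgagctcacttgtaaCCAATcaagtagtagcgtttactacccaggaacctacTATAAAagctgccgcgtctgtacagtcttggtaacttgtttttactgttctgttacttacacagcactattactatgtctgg
Hist2h2ac, chr3:96220831-96221130: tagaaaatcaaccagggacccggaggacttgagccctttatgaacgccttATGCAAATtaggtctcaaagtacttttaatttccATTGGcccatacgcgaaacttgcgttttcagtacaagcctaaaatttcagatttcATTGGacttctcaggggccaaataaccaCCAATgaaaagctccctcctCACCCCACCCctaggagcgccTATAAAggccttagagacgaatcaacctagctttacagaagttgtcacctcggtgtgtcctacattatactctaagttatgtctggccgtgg
Both windows hold 3 CCAAT matches, 1 TATAAA match and 1 octamer, and neither holds the GC box. The CACCC element occurs in both, with 1 match in the first and 2 in the second.

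The H2A partners were barely detected. Hist1h2ac had 7 reads with Ad-KLF14 (0.252 FPKM) and 0 with Ad-GFP, and the counting interval of its ratio begins at 1.46. Hist2h2ac had 2 reads in each library (0.46 and 0.453 FPKM), and with so few reads a difference was not detectable. Over the 58 members with a promoter in the RefSeq table, 50 (86.2%) held CCAAT, against 37.4% of all 32851 promoters of that table with the same length. TATAAA occurred in 34 (58.6%, against 13.6%) and the octamer in 13 (22.4%, against 1.74%). GGGCGG occurred in 23 (39.7%, against 35.7%) and CACCC in 19 (32.8%, against 57.5%). Windows of neighbouring genes overlap, so these members are not independent, and a match is a description of the letters, not a binding site.

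Among the linker histones, Hist1h1c was the only member with a mean of at least 1 FPKM. It was at 17.3 FPKM with Ad-KLF14 and at 11.5 FPKM with Ad-GFP, the second highest level of all members in each library. The smallest read numbers that fit, 129 and 87, gave a ratio of 1.5 with an interval from 1.14 to 2.0. A model of 1561 bases, next to the GENCODE transcript of 1560 bases at chr13:23738808-23740367, would give 301 and 203 reads and an interval from 1.25 to 1.81. Its transcript runs 840 bases past the stem-loop shown above, and 21.9% of its windows of 50 bases in the coding sequence occur in other genes. The promoter of Hist1h1c (chr13:23738557-23738856, plus strand), with the same capitals, holds a CCAAT match and none of the other motifs.
Hist1h1c promoter: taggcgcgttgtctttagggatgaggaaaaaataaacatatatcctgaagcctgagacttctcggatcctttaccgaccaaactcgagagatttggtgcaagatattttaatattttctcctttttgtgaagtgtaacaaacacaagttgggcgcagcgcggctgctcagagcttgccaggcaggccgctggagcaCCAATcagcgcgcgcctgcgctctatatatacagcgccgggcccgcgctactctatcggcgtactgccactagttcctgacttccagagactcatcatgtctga
The other H1 genes were low. Hist1h1e had 11 reads with Ad-KLF14 and 13 with Ad-GFP, and Hist1h1a 7 and 2. Hist1h1b had 5 reads with Ad-KLF14 and none with Ad-GFP. The counting intervals of all 3 hold 1. The testis linker histone gene Hist1h1t was listed at 0 in both libraries.

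The H4 genes encode the same protein from many copies, and 6 of 12 had a mean of at least 1 FPKM. Hist1h4k was the highest, at 5.75 FPKM with Ad-KLF14 and 3.4 FPKM with Ad-GFP. The files give no model lengths. On a model of 312 bases, the coding sequence with the stop codon and the shortest allowed here, 1 read is worth 0.287 FPKM with Ad-KLF14 and 0.283 FPKM with Ad-GFP, and the level then rests on 20 and 12 reads. Hist1h4d had 12 and 4 reads (3.45 and 1.13 FPKM) and a ratio of 3.04, with an interval from 0.922 to 12.9. Hist2h4 had 8 reads and 1 read (2.06 and 0.254 FPKM), and its ratio of 8.11 has an interval from 1.09 to 360. Hist1h4h had 14 and 10 reads, and its interval from 0.587 to 3.57 holds 1. A lower level with Ad-KLF14 was measured in Hist1h4i, at 3.51 against 4.28 FPKM from 21 and 26 reads, and in Hist1h4a, at 1.44 against 2.27 FPKM from 5 and 8 reads. Their intervals, from 0.438 to 1.51 and from 0.163 to 2.2, hold 1. Below a mean of 1 FPKM, 1 H4 gene had reads with Ad-KLF14 only and 2 with Ad-GFP only, where 19.2% and 18.1% of all such genes had. The H4 copies share much of their coding sequence, with 71.5% of the windows of Hist1h4k found elsewhere, but Hist2h4 shares only 6.08%.

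H3 had the lowest summed FPKM and the fewest summed reads of the 5 types, although each of its 12 genes had a read in at least 1 library. Hist1h3e, the only member kept, was at 1.53 FPKM with Ad-KLF14 and 0.645 FPKM with Ad-GFP, from 7 and 3 reads, with a ratio of 2.37 and an interval from 0.54 to 14.2. The other 11 H3 genes had at most 4 reads each over both libraries by the smallest numbers that fit, and for Hist2h3c1 a longer model would give 10 reads with Ad-KLF14 in place of 3, and none with Ad-GFP. In 5 of them reads were in the Ad-KLF14 library only (Hist1h3b, Hist1h3c, Hist1h3i, Hist2h3b and Hist2h3c1), and in 3 in the Ad-GFP library only (Hist1h3a, Hist1h3h and Hist2h3c2-ps), each at 1 to 3 reads, where 19.2% and 18.1% of all genes averaging under 1 FPKM were in 1 library only in the same order. All 11 H3 genes with a coding sequence in GENCODE shared over 50% of their windows with another gene, with 66.3% as the lowest share.

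H2A had the same summed number of reads in both libraries, most of them from a single uncertain row. Hist3h2a, on chromosome 11, was at 3.38 FPKM with Ad-KLF14 and 2.67 FPKM with Ad-GFP from 15 and 12 reads, and its interval from 0.554 to 2.97 holds 1. Hist1h2al was at 1.31 and 1.58 FPKM from 51 and 62 reads, with an interval from 0.564 to 1.23. The smallest read numbers that fit Hist1h2al imply a model of 3480 bases, while the GENCODE entry of that name is a pseudogene of 339 bases, so what this row measures is uncertain. The other 17 H2A genes had at most 7 reads over both libraries, and 4 of them had none. In 5 of them reads were in the Ad-KLF14 library only and in 2 in the Ad-GFP library only. Of all genes averaging under 1 FPKM these shares were 19.2% and 18.1%. The highest counts were 7 reads for Hist1h2ac with Ad-KLF14 and 5 reads for Hist1h2ae with Ad-GFP.

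**Figure D3:**
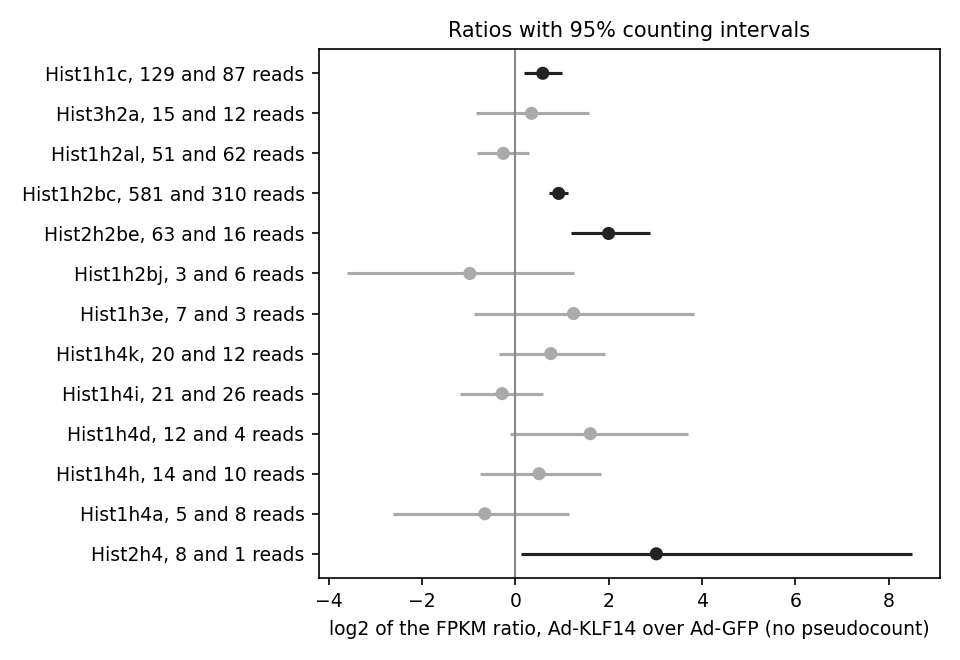
Ratio of Ad-KLF14 over Ad-GFP for the 13 members kept, which averaged at least 1 FPKM, as log2 of the FPKM ratio without a pseudocount, with lines for 95% counting intervals and the smallest fitting reads of both libraries (Ad-KLF14 first) beside each name. Dark lines, for Hist1h1c, Hist1h2bc, Hist2h2be and Hist2h4, do not reach 0.

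Over all members, 32 had reads in both libraries, 17 in the Ad-KLF14 library only, 9 in the Ad-GFP library only and 8 in neither. All members seen in 1 library only averaged under 1 FPKM, a level at which 19.2% of all genes above 0 had reads with Ad-KLF14 only and 18.1% with Ad-GFP only. A mean of at least 1 FPKM was reached by 13, of which 9 had a log2 ratio above 0 on log2(FPKM + 1) and 4 below it, where 48.3% of all 12419 genes kept were above 0. At least 2-fold higher were 3 of the 13 (Hist2h2be, Hist2h4 and Hist1h4d), against 6.37% of all genes kept, and 0 were at least 2-fold lower, against 8.99%. The median log2 ratio of the 13 was 0.55, and that of all genes kept was −0.03. A member at 1 FPKM may rest on a few reads in 1 library, and a gene kept only through the library where it is high had to differ, so these counts describe the members kept and not all 66. The counting interval of the ratio lay above 1 in 4 of the 13 and below 1 in 0, and it held 1 in 9. Of the genes kept with recovered reads, it lay above 1 in 33.7% and below 1 in 37.9%, so an interval that leaves out 1 is common between these libraries.

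Sums over a type use all 66 members. Summed reads do not depend on how reads were divided among the copies within a type, provided that no read was counted in more than 1 gene. The sources used here do not state whether that holds, and some windows are also shared with genes outside the 66. The read sums given here also depend on the fits, because they add the smallest numbers that fit each gene. For 4 members a longer model fits as well. With it Hist1h1c would add 301 and 203 reads in place of 129 and 87, and Hist2h2be 126 and 32 in place of 63 and 16. The ratios and intervals of the sums would then change. Summed FPKM does depend on the division, because the fitted model lengths differ within a type. In H2B, for example, they are 381 bases for Hist1h2bj and 728 bases for Hist1h2bc. The H2B genes summed to 80.0 FPKM with Ad-KLF14 and 42.8 FPKM with Ad-GFP, from 667 and 349 reads, with a ratio of reads per library total of 1.94 (interval 1.7 to 2.21). For H1 the sums were 19.7 and 12.6 FPKM from 164 and 111 reads (ratio 1.5, interval 1.17 to 1.92). The H4 sums of 21.2 and 14.6 FPKM, from 88 and 66 reads, gave a ratio of 1.35 (interval 0.972 to 1.89). H3 summed to 4.12 and 2.46 FPKM from 21 and 15 reads (ratio 1.42, interval 0.698 to 2.96). H2A, at 8.34 and 7.09 FPKM, had 90 reads in each library (ratio 1.01, interval 0.749 to 1.37). Only for H1 and H2B did the interval leave out 1, and each of these sums is mostly Hist1h1c or Hist1h2bc. All 66 members together had 1030 and 631 reads, and without Hist1h2bc the other 65 had 449 and 321 (ratio 1.42, interval 1.23 to 1.64). In RNA from a whole culture, more cells with a transcript and more transcript per cell cannot be told apart.

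**Figure D4:**
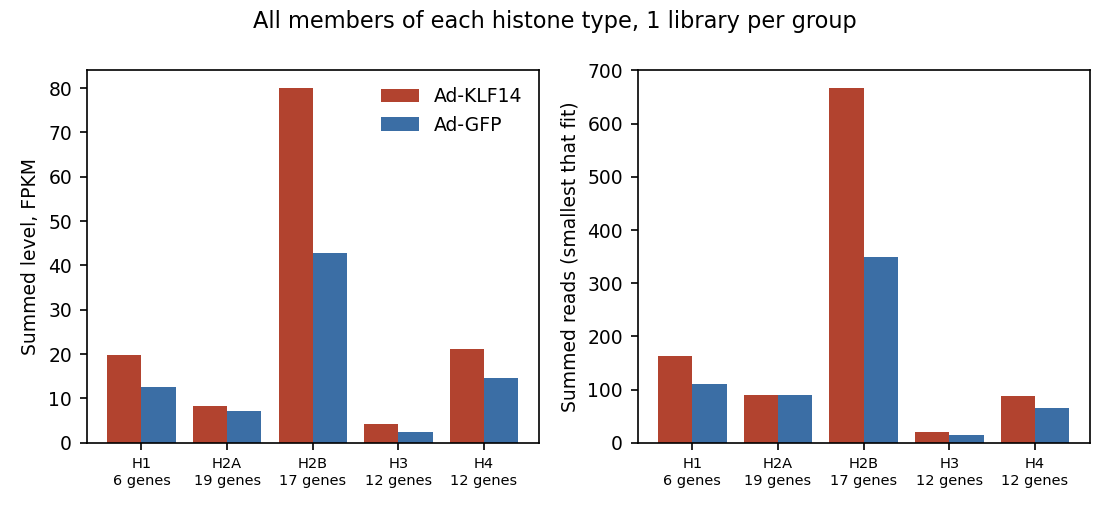
Summed level in FPKM (left) and summed reads (right, smallest numbers that fit) of all members of each histone type, with 1 bar for each library and no error bars. H2B has the tallest bars in both panels, at 80.0 and 42.8 FPKM, and the H2A bars stand at 90 reads in each library.

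By annotated 3′ end, the members fall into 6 groups. Hist1h2bc and Hist2h2be have a GENCODE transcript of 200 bases or more past the stop codon without a match to the stem-loop pattern. This pair made up 56.9% of the summed FPKM with Ad-KLF14 and 48.6% with Ad-GFP. Another 20 members have a stem-loop and a transcript of 200 bases or more after the stop codon, among them Hist1h1c, Hist3h2a, Hist1h4i, Hist1h4d, Hist2h4 and Hist1h3e. These summed to 34.2 and 24.3 FPKM, from 235 and 173 reads (ratio 1.38, interval 1.13 to 1.69). The 23 members whose transcript has a stem-loop and ends 10 or more but under 200 bases after the stop codon summed to 10.8 and 10.1 FPKM, from 50 and 49 reads (ratio 1.04, interval 0.684 to 1.57). In 15 members the transcript ends within 10 bases of the stop codon, so the annotation holds no stem-loop to find, and their reads were 41 and 16 (ratio 2.6, interval 1.43 to 4.96). Of the latter, 20 and 12 reads were those of Hist1h4k. Lower with Ad-KLF14 was the sum of the 4 members without a coding transcript, with 52 and 65 reads (ratio 0.811, interval 0.552 to 1.19), most of them from Hist1h2al. The remaining 2 members, with a short end and no match to the pattern, had 8 and 2 reads (ratio 4.06, interval 0.81 to 39.2). Most of the summed FPKM in both libraries thus came from members with long annotated ends, above all Hist1h2bc and Hist1h1c. Whether the deposited gene models follow these ends is not stated, but the recovered lengths bear on it. For Hist1h1c and Hist2h2be a length within 1% of the GENCODE transcript fits the values. For Hist1h2bc, Hist3h2a, Hist1h4i, Hist1h4d, Hist2h4 and Hist1h3e no such length fits. The smallest fit of Hist1h2bc is 728 bases, against 1156 bases in GENCODE. A miss by more than 1% does not show that a model lacks the long end. The processing notes name the build mm8, while these transcripts are on GRCm38, so lengths may differ. The smallest fits of Hist1h2bc (728 bases) and Hist1h4i (537 bases) run past their coding sequences of 381 and 312 bases. The long ends are thus those of the GENCODE annotation, and for most of these genes the values do not settle whether the models hold them.

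Copies limit most of the single values. Of the 62 members with a coding sequence in GENCODE, 48 share over 50% of their windows of 50 bases with a transcript of another gene, and 5 share none. The median share was 10.9% for H1, 85.8% for H2A, 72.2% for H2B, 81.8% for H3 and 69.0% for H4. With windows of 36 bases the medians were 14.3%, 87.4%, 77.1%, 86.2% and 73.6%. The shares include transcripts that overlap a histone gene at its own place, such as a transcript of Trim17 over Hist3h2a. Neither the read length nor how reads that match several genes were counted is given in the sources used here.

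Histone genes outside the clusters ranged from 0 in both libraries, for 3 of the 17 listed, to levels above that of any clustered member. Many of these genes, though not all, make polyadenylated mRNAs throughout the cell cycle. Of the 17 genes 12 were kept, 5 above 0 and 7 below, with 1 past 2-fold upward and 0 downward, near the shares of all genes kept (48.3% above 0, 6.37% upward and 8.99% downward). Their median log2 ratio was −0.16. H3f3a, which encodes the replacement histone H3.3, was at 439 FPKM with Ad-KLF14 and 301 FPKM with Ad-GFP, while H3f3b, which encodes the same protein, was at 253 and 313 FPKM. The linker histone gene H1f0, typical of cells that do not divide, was at 78.1 and 55.3 FPKM (ratio 1.41, interval 1.32 to 1.51), and H1fx at 13.4 and 7.24 FPKM. The H2A variant genes H2afz and H2afx were lower with Ad-KLF14, at 22.7 against 38.7 FPKM and 10.8 against 17.7 FPKM. H3f3c, an H3.3-like copy, was at 9.09 and 3.52 FPKM, and its reads may be shared with H3f3a and H3f3b. In both libraries H3f3a and H3f3b were each above the sum of all 66 clustered genes, which was 133 and 79.6 FPKM. This compares the RNA that was captured, and how much of the tailless mRNA of the clustered genes was captured was not tested.

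Genes that act on histone mRNA and histone proteins were mostly above 0. Slbp, whose protein binds the stem-loop, was at 216 FPKM with Ad-KLF14 and 152 FPKM with Ad-GFP (ratio 1.42, interval 1.37 to 1.47), and Npat, the coactivator of clustered histone genes, at 17.2 and 14.1 FPKM. Of 25 kept genes for histone transcription and 3′ processing, 19 were above 0 (48.3% of all genes kept), 3 at least 2-fold higher (6.37% of all) and 0 lower (8.99% of all), with a median of 0.23. The 3 were the cap-binding genes Ncbp1 (117 against 51.6 FPKM) and Ncbp2 (30.9 against 14.7 FPKM), and Hinfp, an activator of H4 genes (20.8 against 9.14 FPKM). Nfyb, a subunit of the factor that binds CCAAT, was at 45.3 against 23.6 FPKM. Of 24 histone chaperone genes 15 were above 0, with 2 at least 2-fold higher, a share near the 6.37% of all genes, and 0 lower, and a median of 0.14. The chaperone gene Asf1b, which serves replication, was at 54.9 against 10.3 FPKM and Ubn1 of the HIRA complex at 37.7 against 13.3 FPKM. Ubn2 was at 5.54 against 2.59 FPKM, and Set was lower, at 47.5 against 93.6 FPKM.

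DNA replication and S phase genes had a median log2 ratio of 0.35 over 46 genes kept. Above 0 were 35 of them, where 48.3% of all genes kept were, and past 2-fold 10 were higher and 2 lower, against 6.37% and 8.99% of all genes kept. E2f2 was at 38.9 against 3.64 FPKM and Mki67 at 21.8 against 6.7 FPKM, while Tk1 was at 3.86 against 22.1 FPKM. These values stand beside those of the clustered histone genes, and whether the share of cells in S phase differed between the cultures was not tested.

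The read totals recovered from the values were 11151711 (Ad-KLF14) and 11311344 (Ad-GFP). The reads recovered gene by gene summed to more, 11434877 and 11738243. Some reads may have been counted in several genes, some read numbers may be too high, or the totals may not count the same reads. Which of these holds was not tested, and read numbers and intervals above carry that uncertainty. Klf14 itself was at 13164 FPKM in the library labelled Ad-KLF14 and at 0.298 FPKM in the other, and virus and endogenous transcripts were not told apart. The 8 hepatocyte markers summed to 12368 FPKM with Ad-KLF14 and 15650 FPKM with Ad-GFP. Of them 1 was above 0 and 7 below, where 48.3% of all genes kept were above 0. Past 2-fold 0 were higher and 0 lower (6.37% and 8.99% of all genes kept), and their median log2 ratio was −0.24. Macrophage markers summed to 172 and 80.4 FPKM, of which the lysosomal Cd68 made up 160 and 71.1 FPKM, and Clec4f of Kupffer cells was at 0.411 and 0.332 FPKM. Of the other cell types, endothelial markers summed to 5.46 and 4.29 FPKM, cholangiocyte markers to 3.46 and 6.26 FPKM (Krt7 at 0 in both), stellate and fibroblast markers to 0.226 and 0.593 FPKM and lymphocyte markers to 1.34 and 0.546 FPKM (Cd3e at 0 in both). The part of other cells in the histone values was not tested.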

How the data were processed

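RNA from 2 hepatocyte cultures was sequenced as 1 library each. The deposited values are FPKM per gene, made by the authors. Bowtie 0.12.2 and the genome build mm8 are named in the submitters' processing notes. The design text names hepatocytes but also retinal RNA and replicates, while the labels give hepatocytes and 1 library per group was analysed here. The clustered histone genes and all gene lists were chosen with earlier results of these data known.

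Low FPKM values are whole multiples of what 1 read is worth, and library totals and reads were recovered from these steps (tolerance 1e-06). Whole reads were found for 18915 of 19667 genes (96.2%), and for all 58 members with reads. Read numbers are the smallest that fit a model no shorter than the coding sequence. Plain ratios are of FPKM or, for sums, of reads per library total. Log2 ratios are differences of log2(FPKM + 1), Ad-GFP subtracted from Ad-KLF14, and understate changes of low genes. Genes averaging 1 FPKM or more were kept, and a gene was called at 2-fold or more on this scale. Members kept are all named; of the others, those with reads in 1 library only or with the 2 highest means of their type may be named. Hist1h1t and Clec4f were chosen after their values were seen. Of each other list, up to 4 genes with the largest absolute log2 ratio are named, and always H1f0, H2afx, H2afz, H3f3a, H3f3b, Slbp, Npat and Mki67. A gene that this rule names is not reported here. Sequences came from GENCODE M21 (GRCm38) and RefSeq (GRCm38.p6). Work was done in Python 3.11.15 with pandas 2.3.3, NumPy 2.4.6 and SciPy 1.17.1. Alternatives were other pseudocounts, filters and scalings.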

Additional observations from a re-analysis of the deposited data

How the results depend on the processing

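No paired analysis was possible because each group is 1 library. With the settings of the report 3 of 13 members were at least 2-fold higher, against 6.37% of all genes kept. This became 4 of 13 with a pseudocount of 0.1 (8.87% of all) and 4 of 17 with each library scaled to a sum of 1000000 (8.83%). It became 0 of 13 with a pseudocount of 5 (2.38%) and 0 of 2 when a mean of 5 FPKM was required (5.97%). With at least 20 reads, an alternative chosen after seeing the data, it was 1 of 10 members, against 5.88% of all. No member was at least 2-fold lower under any setting, where from 3.76% to 12.0% of all genes kept were. The median log2 ratio of the members, 0.55, became 0.21 with a pseudocount of 5, 0.73 at a mean of 5 FPKM, 0.18 over the 58 members with reads and no filter, and 0.30 with at least 20 reads. The H2B median of 0.91 became 0.62 with a pseudocount of 5, 1.13 with at least 20 reads, 0.00 with no filter and 0.17 with each library scaled to a sum of 1000000, and the H1 median of 0.55 became 0.10 with at least 20 reads. For histone transcription and 3′ processing the median of 0.23 became 0.21 with a pseudocount of 5, 0.27 with TMM, 0.26 with the upper quartile, 0.26 without Klf14 in the total and 0.29 with the sum. For the chaperones 0.14 became 0.11, 0.18, 0.16, 0.17 and 0.20 in the same order, and 0.10 with at least 20 reads. For S phase 0.35 became 0.33, 0.39, 0.37, 0.38 and 0.40 in that order, 0.37 at a mean of 5 FPKM and 0.33 with at least 20 reads. For the histone genes outside the clusters −0.16 became −0.11 with no filter, −0.12 with TMM and −0.11 with the sum. None of these medians turned to the opposite sign. Depth limits most members: 35 of 66 had at most 3 reads over both libraries, and 14 had 10 or more.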
